A study of Mus musculus with 12 samples.

Results

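The effect of the Mef2c genotype was followed in organotypic brain slices driven into strong network activity. Of the 12 libraries of the study, 6 enter the comparison: 3 from treated slices with floxed Mef2c alleles and no Cre, and 3 from treated slices labelled as carrying CaMKIIα-Cre as well. A gene entered the tests when its level, averaged over all 12 libraries, reached 1 CPM (the reads of a gene scaled to a common library total), which kept 13048 of the 21967 gene symbols in the deposited table. All mice carried 2 floxed Mef2c alleles (Mef2c fl/fl). The group without Cre had no other allele in its label, and the other group was CaMKIIα-Cre +/-, a transgene with a promoter that is active mainly in forebrain excitatory neurons, so that glia and most inhibitory neurons of a slice lie outside its reach. Slices were cut from pups at postnatal day 6, kept for 8 days in vitro and then given 100 µM picrotoxin with 100 µM 4-aminopyridine, or 1% DMSO with 1% water as vehicle. The labels give neither the length of the treatment, the brain region (the tissue is given as brain), nor whether the libraries of a group came from separate animals, so p-values measure only the spread between these libraries, which may be technical.

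MEF2C belongs to the MEF2 transcription factors, which bind an A/T-rich DNA element and can activate or repress genes according to the cofactors they recruit, class IIa histone deacetylases among them. In cortical neurons MEF2 factors are targets of calcium signalling, and they are known for their part in activity-dependent transcription and in the number and strength of excitatory synapses. Picrotoxin closes the chloride channel of GABA-A receptors, 4-aminopyridine prolongs action potentials by closing potassium channels, and the firing that results switches on immediate early genes, many of them transcription factors such as FOS, JUN and EGR proteins, followed by late-response genes for secreted and synaptic proteins.

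The 6 treated libraries held 101660060 to 126228396 counted reads, of which transcripts of the mitochondrial genome made up 3.03% to 5.44%. A summed level of 7 transcripts rich in retained introns or nuclear RNA (Snhg11, Nktr, Ccnl1, Wsb1, Clk1, Clk4 and Leng8, a list chosen after their values were seen) was 234, 161 and 136 CPM in the treated libraries without Cre and 464, 89.3 and 197 CPM in those labelled Cre, against 95.9 to 150 CPM in the 6 vehicle libraries. The first treated library labelled Cre was therefore the highest of the 12 on this list and the second the lowest. Summed Y-linked transcripts were at 0.522 CPM in the second treated library without Cre, at 0.395 CPM in the first labelled Cre and at 96.0 to 119 CPM in the other 4, so each genotype held 1 library with almost none.

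Mef2c (chromosome 13, positions 83504034 to 83667080, plus strand, GRCm38, GENCODE M21) went against the label. Its level was 974, 1225 and 1041 CPM in the treated libraries without Cre and 2220.1, 1944 and 2304 CPM in those labelled Cre, means of 1079.9 ± 129.6 and 2156 ± 188 CPM (SD, n = 3). All 3 libraries labelled Cre were higher than all 3 without it, by 1.00 on the log2 scale (SE 0.11, limma adjusted p = 9.77e-05). In an exact two-sided permutation test over the 6 libraries p was 0.1, the smallest that 3 against 3 can give. A single value per gene does not show whether the loxP-flanked part was removed, and the direction of every difference below is that of libraries labelled Cre minus libraries without Cre. Had the genotype labels been exchanged, every direction given below would turn around, and whether they were was not tested. The deposited table calls the libraries labelled Cre KO and those without Cre WT. Below, where a gene has 2 sets of 3 levels, those of the treated libraries without Cre come first, and a number in brackets beside a gene is its log2 difference.

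Of the other family members, Mef2d stood at 276, 294 and 266 CPM without Cre and 362, 353 and 388 CPM in the libraries labelled Cre (log2 difference 0.40, adjusted p = 0.00133). Mef2a was at 180.1, 163 and 156 CPM and at 246, 197 and 215 CPM (log2 difference 0.40, adjusted p = 0.00629, but 0.0752 when the 6 treated libraries were fitted alone). Both sets of libraries were apart for both genes, with those labelled Cre on top. Mef2b, the least abundant, was at 7.60, 7.68 and 7.99 CPM and 6.11, 7.38 and 5.87 CPM, with a log2 difference of -0.24 that did not pass (adjusted p = 0.154). In vehicle all 4 family members were called, 3 higher and 1 lower, beside 9.18% and 10.1% of all genes. Mef2c was higher in the libraries labelled Cre there too. The list of 6 class II histone deacetylases holds the class IIa genes Hdac4, Hdac5, Hdac7 and Hdac9, whose products bind MEF2 proteins and repress their targets, and the class IIb genes Hdac6 and Hdac10. Hdac5 was at 126, 119 and 108 CPM without Cre and 174, 136 and 134 CPM in the libraries labelled Cre. Hdac9 was at 40.3, 46.5 and 43.0 and 37.0, 33.1 and 33.4 CPM. Their log2 differences of 0.32 and -0.32 passed narrowly (adjusted p = 0.0356 and 0.0484), and neither did in the 6 libraries alone (adjusted p = 0.185 and 0.0891). The other 4 genes of that list were not called. Within 5 Mb of Mef2c lay 10 other tested genes, of which 2 were higher, Adgrv1 (1.06) and Cetn3 (0.35), and 0 lower, where 7.5% of all tested genes were higher.

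**Figure D1:**
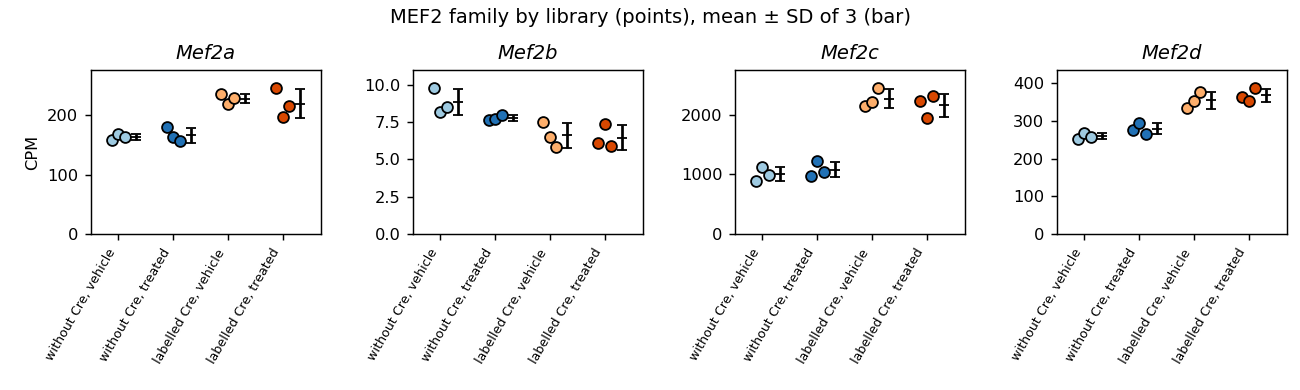
Level of the 4 MEF2 family genes in CPM (vertical axes from 0) in each of the 12 libraries (points), with mean ± SD of 3 libraries beside each group. The 3 treated libraries labelled Cre lie above the 3 treated libraries without Cre for Mef2a, Mef2c and Mef2d, and below them for Mef2b, whose difference was not called.

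Between genotypes in treated slices, 1755 genes (13.5% of those tested) passed an adjusted p of 0.05, of which 979 (7.5%) were higher and 776 (5.95%) lower in the libraries labelled Cre. The median of all tested genes was 0.02 on the log2 scale. Differences of more than 2-fold were reached by 67 of the higher and 50 of the lower genes. These counts rest on a spread shared with the vehicle libraries, which lay closer together. A fit of the 6 treated libraries alone also had fewer libraries to estimate the spread from. It called 614 genes (4.71% of those tested, 330 or 2.53% higher and 284 or 2.18% lower), of which 611 were among the 1755. The cause of the lower count was not tested. Leaving out 1 library gave 1151 genes without the third treated library labelled Cre and 2687 without the second. Groups of 3 libraries did not overlap for 3332 genes (25.5%), higher for 1767 (13.5%) and lower for 1565 (12%). In a bulk library fewer cells of a type and less RNA per cell cannot be told apart.

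The 15 largest rises among the genes named by rule are described first. Rspo2, a secreted enhancer of Wnt signalling (chromosome 15, positions 43020794 to 43170826), rose from 3.20, 2.00 and 1.58 CPM to 13.4, 14.9 and 12.7 CPM, a log2 difference of 2.20 (SE 0.15, adjusted p = 4.32e-06). Tmem114, a claudin-related membrane protein, was at 1.05, 1.66 and 1.74 CPM without Cre and 11.8, 12.2 and 14.7 CPM in the libraries labelled Cre (2.49, adjusted p = 1.99e-06), the largest rise of those named. The extracellular matrix glycoprotein gene Tnn was at 2.51, 2.37 and 2.34 CPM against 15.5, 15.3 and 11.3 CPM (2.13, adjusted p = 1.02e-05). The groups of these 3 genes did not overlap, which the rule for naming the largest rises and falls required. Klk8, the secreted serine protease neuropsin, rose by 2.04 on the log2 scale, from 0.959, 0.600 and 0.959 CPM to 4.89, 7.36 and 7.66 CPM. Also secreted are the metalloprotease of Tll2 (log2 difference 1.51), the insulin-like growth factor binding protein of Igfbp6 (1.50) and the thrombospondin-repeat protein of Thsd4 (1.80).

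Slc6a7, a brain-specific proline transporter of excitatory synapses, was the most abundant gene among the 15 largest rises. Its level was 67.4, 75.0 and 59.2 CPM without Cre and 227, 239.6 and 256 CPM in the libraries labelled Cre (log2 difference 1.83, SE 0.10, adjusted p = 1.31e-06). Calb2, the calcium-binding protein calretinin that marks a class of interneurons, rose from 14.5, 16.9 and 17.1 to 53.4, 56.6 and 53.6 CPM (1.70, adjusted p = 1.31e-06). Fibcd1, a membrane receptor for acetylated sugars that marks hippocampal CA1, rose from 22.5, 22.1 and 26.6 to 77.4, 106 and 96.0 CPM (1.92, adjusted p = 5.34e-06). The 6 libraries separated by genotype for the 3 genes, as the rule for naming them required. Cyp26b1, which degrades retinoic acid, was at 9.42, 5.98 and 5.36 CPM without Cre and at 22.8, 23.1 and 22.9 CPM in the libraries labelled Cre (1.63, adjusted p = 2.56e-05). Rem2, a small GTPase of the RGK family whose transcription follows neuronal activity, was at 6.49, 3.11 and 2.81 and at 15.3, 13.5 and 9.50 CPM, and the first library of each group was its highest (1.47, adjusted p = 0.00102). Arsi, Cwh43 and Fndc9 made up the rest of the 15, with log2 differences of 1.63, 1.58 and 1.52.

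The 15 largest falls began with Itgb4, Cartpt and Plk5. Itgb4, the integrin β4 subunit of a laminin receptor (chromosome 11, positions 115974709 to 116008412), was at 15.8, 22.4 and 26.1 CPM without Cre and 2.75, 2.89 and 2.50 CPM in the libraries labelled Cre (log2 difference -2.57, SE 0.19, adjusted p = 5.34e-06). Cartpt, the precursor of CART neuropeptides, was at 16.8, 14.0 and 15.3 and 2.39, 1.77 and 1.65 CPM (-2.49, adjusted p = 2.76e-06). Npnt, the integrin ligand nephronectin, was at 267, 352 and 384 and 90.8, 86.8 and 88.9 CPM (-1.88, adjusted p = 2.46e-06). For each the groups lay apart, which the rule for naming them required. The libraries labelled Cre spread little around their low level for Itgb4 and Npnt. Plk5, a polo-like kinase family gene of dentate granule cells, fell from 9.59, 5.20 and 13.2 to 0.554, 1.24 and 0.915 CPM (-2.38), and the network collagen gene Col8a1 from 7.93, 14.4 and 9.05 to 1.49, 1.43 and 1.19 CPM (-2.24). Also among the 15 were falls of the proneural factor gene Neurog2 by 1.59 on the log2 scale, the homeobox gene Rax by 1.47, the glucagon-like peptide 2 receptor gene Glp2r by 1.59 and Lypd1, a Ly6-family binding partner of nicotinic receptors, by 1.56. The other falls among the 15 largest were those of Coch (-1.63), Exph5 (-1.62), Tcap (-1.54), Sgpp2 (-1.54), Rassf3 (-1.45) and Cyr61 (-1.45).

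**Figure D2:**
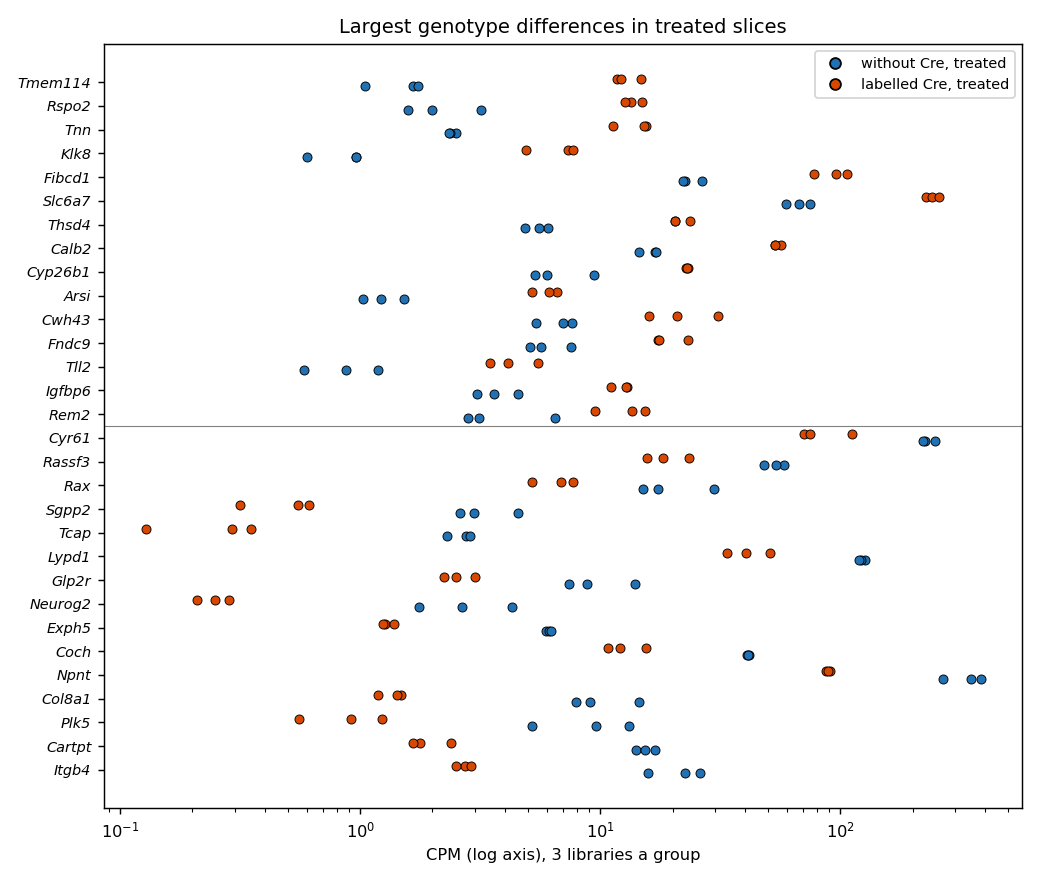
CPM (log axis) of the 15 largest rises (above the line) and 15 largest falls (below it) in the 3 treated libraries without Cre and the 3 labelled Cre, each point 1 library. The groups do not overlap for any of the 30 genes, which the rule for naming them required.

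Immediate early transcription factor genes were more often lower than higher. All 25 genes of the list were tested. In the libraries labelled Cre 9 fell and 2 rose, beside 5.95% and 7.5% of all genes, and 14 were not called. The median of the 25 was -0.30 on the log2 scale, against 0.02 for all genes. Their summed level was 13547 to 15055 CPM without Cre and 10043 to 10820 CPM in the libraries labelled Cre, so the groups did not overlap. In vehicle the same list had 5 lower and 3 higher, beside 10.1% and 9.18% of all genes, with a median of -0.19. The list and its members were chosen with earlier results of these data known.

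Jun, which encodes an AP-1 subunit (chromosome 4, positions 95049034 to 95052222, minus strand), fell most among the 25. It was at 515, 399.7 and 393 CPM in the treated libraries without Cre and at 227, 159 and 152 CPM in those labelled Cre (log2 difference -1.29, SE 0.15, adjusted p = 0.000145). In vehicle it had been at 47.2, 53.0 and 48.2 CPM and 66.8, 65.1 and 54.7 CPM, a log2 difference of 0.32 that did not pass (adjusted p = 0.14). Every treated library labelled Cre was below every treated library without Cre and above all vehicle libraries. Klf4, a zinc-finger factor, was at 49.0, 57.2 and 38.5 and 25.0, 19.7 and 19.3 CPM (-1.13, adjusted p = 0.000253). Junb, another AP-1 subunit, was at 919, 919 and 937 and 601, 605 and 575 CPM, with little spread in either group (-0.64, adjusted p = 0.00133). Egr1, the zinc-finger factor often used as an activity marker, was at 1644, 2133 and 1714 and 1177, 1255 and 1344 CPM (-0.53, adjusted p = 0.00558). Egr4, of the same family, was at 931, 1224 and 1253 and 628, 733 and 692 CPM (-0.72, adjusted p = 0.025).

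Nr4a3, an orphan nuclear receptor, was at 503, 571 and 531 CPM without Cre and at 349, 365 and 369.7 CPM in the libraries labelled Cre (log2 difference -0.56, adjusted p = 0.0293). Maff, a small MAF factor, was at 36.7, 32.5 and 34.0 and 25.3, 20.8 and 19.9 CPM (-0.63, adjusted p = 0.00494). The groups lay apart for both, with the libraries labelled Cre below. Jund (-0.41) and Atf3 (-1.02) passed over the 12 libraries and not over the 6 treated ones alone (adjusted p = 0.0867 and 0.145), and for Atf3 the first library without Cre stood at 56.8 CPM against 26.9 and 24.3 CPM in the other 2. Fos and Fosb, which encode the partners of JUN proteins in AP-1, passed over the 6 treated libraries and not over the 12. Fos was at 1631, 1643 and 1552 CPM without Cre and 1189, 1049 and 990.3 CPM in the libraries labelled Cre, groups that did not overlap, with a log2 difference of -0.58. Its adjusted p was 0.147 over the 12 libraries, where the vehicle level of Fos was 22.5, 57.9 and 28.0 CPM without Cre and 25.6, 26.7 and 20.0 CPM in the libraries labelled Cre, and 0.0135 over the 6. Fosb was at 1674, 1842 and 1901 and 1213, 1132 and 1178 CPM (-0.62, adjusted p = 0.237 over 12 and 0.00806 over 6 libraries). In both fits 9 of the 25 fell and 2 rose, with 7 of the lower ones shared. Of all genes 2.18% fell and 2.53% rose in the 6 libraries alone. Leaving out any 1 treated library left 6 to 9 lower and 2 higher, with 6 without the third library labelled Cre.

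The 2 that rose were Ier5, at 81.8, 61.8 and 66.4 CPM without Cre and 149, 103 and 120.0 CPM in the libraries labelled Cre (log2 difference 0.81, adjusted p = 0.00195), and Klf10, at 23.1, 20.8 and 20.5 and 38.1, 29.1 and 36.4 CPM (0.65, adjusted p = 0.000717). Klf10 was also higher in vehicle, by 1.02. Among the genes not called, Npas4, a factor induced almost only by depolarisation, was at 1975, 2851 and 2027 CPM and 1623, 1632 and 1599 CPM (log2 difference -0.48, adjusted p = 0.558). Its SE of 0.48 was the widest of the list. Egr2 was at 180.3, 181 and 177 and 172, 148 and 159 CPM (-0.17, adjusted p = 0.518) and Egr3 at 1148, 997 and 902 and 1412, 996 and 1043 CPM (0.17, adjusted p = 0.529). Egr3 overlapped between the groups and Egr2 did not. Nr4a1 (-0.30), Nr4a2 (-0.14), Fosl2 (-0.13) and Srf (0.16) were not called either.

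The promoters of this list were read for the MEF2 binding consensus, since several of its members moved together. RefSeq promoter sequences of GRCm38.p6 were at hand for 10134 of the 13048 tested genes and for 18 of the 25. The consensus, searched on both strands in the 250 bases before the start, was present in 186 of the 10134 promoters (1.84%). Promoters were at hand for 727 of the 979 higher genes, 1.51% of them with the consensus. For lower genes they were at hand for 607 of 776, 2.47% of them with it. These shares leave out the genes without a promoter at hand. With only 18 promoters matched, no share is read for the list. A match was found in 4 promoters, those of Jun and Atf3, which fell, and those of Klf2 and Nr4a2, which were not called. The sequences are given 5′ to 3′ on the strand of the gene with the match in capitals, to set the 2 genes that fell beside the 2 that were not called. Those of Jun (chr4:95052223-95052472, minus strand), Atf3 (chr1:191183334-191183583, minus), Klf2 (chr8:72318812-72319061, plus) and Nr4a2 (chr2:57124004-57124253, minus) read as follows.
Jun: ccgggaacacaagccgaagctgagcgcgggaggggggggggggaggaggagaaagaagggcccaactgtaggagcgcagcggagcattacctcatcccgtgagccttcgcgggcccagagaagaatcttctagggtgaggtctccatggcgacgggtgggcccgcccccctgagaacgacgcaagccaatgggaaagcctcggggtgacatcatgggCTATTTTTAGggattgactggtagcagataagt
Atf3: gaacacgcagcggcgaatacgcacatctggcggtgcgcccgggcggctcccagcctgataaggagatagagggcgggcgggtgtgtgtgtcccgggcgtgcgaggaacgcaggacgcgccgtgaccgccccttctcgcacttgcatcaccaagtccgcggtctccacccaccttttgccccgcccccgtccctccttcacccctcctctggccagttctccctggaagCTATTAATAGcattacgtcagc
Klf2: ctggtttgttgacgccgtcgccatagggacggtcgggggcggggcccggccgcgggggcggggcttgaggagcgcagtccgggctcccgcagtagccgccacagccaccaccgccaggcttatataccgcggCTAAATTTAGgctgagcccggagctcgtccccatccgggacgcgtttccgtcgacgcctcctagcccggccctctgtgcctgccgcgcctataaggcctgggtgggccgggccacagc
Nr4a2: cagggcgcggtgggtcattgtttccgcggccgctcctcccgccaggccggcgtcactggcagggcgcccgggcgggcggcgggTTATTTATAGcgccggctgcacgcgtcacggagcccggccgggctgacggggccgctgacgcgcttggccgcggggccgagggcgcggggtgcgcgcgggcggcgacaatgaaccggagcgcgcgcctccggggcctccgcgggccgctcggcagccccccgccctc
The matches started 33 bases before the start in Jun, 22 in Atf3, 118 in Klf2 and 167 in Nr4a2. The letters of the match were CTATTTTTAG in Jun and CTATTAATAG in Atf3, CTAAATTTAG in Klf2 and TTATTTATAG in Nr4a2, so each of the 4 differs from the others. The same search found the consensus in 0 of 17 promoters of the immediate early effectors described next. Of 15 promoters of candidate MEF2 targets 2 had it, again Jun and Klf2. The motifs AP-1 (TGANTCA), CRE (TGACGTCA) and the CArG box of SRF were searched too. They were in 0, 1 and 2 of the 18 promoters and 0, 5 and 2 of the 17, beside 5.46%, 3.1% and 1.43% of all 10134. A match describes the letters in this window and shows no binding.

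Of 24 listed immediate early genes that encode effectors 23 were tested, of which 9 fell (39.1%, against 5.95% of all genes), 3 rose (13%, against 7.5%) and 11 were not called, with a median of -0.14. In vehicle the same list had 3 lower and 1 higher, beside 10.1% and 9.18% of all genes, with a median of -0.02. In the 6 treated libraries alone 6 fell and 2 rose, where 2.18% and 2.53% of all genes did, and 6 fell and 3 rose without the third treated library labelled Cre. Cyr61, a secreted matricellular protein, was at 247, 225 and 219.9 CPM without Cre and 112, 70.5 and 74.7 CPM in the libraries labelled Cre (log2 difference -1.45, SE 0.18, adjusted p = 0.000282). Ptgs2, the inducible cyclooxygenase of prostaglandin synthesis, was at 328, 234 and 270.3 and 122, 174 and 100.1 CPM (-1.09, adjusted p = 0.0124). Btg2, an antiproliferative cofactor of mRNA deadenylation, was at 115, 101 and 109 and 71.4, 47.1 and 52.8 CPM (-0.93, adjusted p = 0.000647). For these 3 genes the lowest library without Cre exceeded the highest labelled Cre. Arl4d, a small GTPase, was at 333, 393 and 316 and 205, 159 and 162 CPM (-0.99, adjusted p = 0.00629). Dusp1, a nuclear phosphatase that switches off MAP kinases, was at 216, 208 and 198 and 143, 107 and 110.5 CPM (-0.79, adjusted p = 0.00354).

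Otud1, a deubiquitinase, was at 34.6, 35.5 and 27.3 CPM without Cre and at 14.3, 14.4 and 14.2 CPM in the libraries labelled Cre (log2 difference -1.12, adjusted p = 8.76e-06). The remaining falls, of Dusp5 (-0.44), Zfp36 (-0.44) and Rgs2 (-0.35), did not pass in the 6 libraries alone (adjusted p = 0.089, 0.0623 and 0.122). Nptx2, a secreted pentraxin that gathers AMPA receptors, rose from 621, 432 and 339 CPM to 1236, 900.2 and 933 CPM (1.17, adjusted p = 0.00576). Amigo3 and Plk3 rose by 0.56 and 0.52, the latter not in the 6 libraries alone (adjusted p = 0.0904). Arc, whose protein drives AMPA receptor endocytosis, was at 1339.8, 1319.7 and 994 and 1231, 1006 and 1039.6 CPM, groups that overlapped (-0.15, adjusted p = 0.746). Homer1 was at 832, 576 and 350.4 and 1129.7, 526 and 642 CPM (0.39, adjusted p = 0.41), and Gadd45g at 103, 53.2 and 21.5 and 119, 28.5 and 43.2 CPM (0.10). For both of these the first library of each group was far above its other 2, the library that was also highest for the nuclear transcripts. The part of that library in these values was not tested.

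Of 22 late-response and secreted genes 9 rose (40.9%, against 7.5% of all genes), 2 fell (9.09%, against 5.95%) and 11 were not called, and the median was 0.50. Their median rise with treatment without Cre was 0.38 on the log2 scale, against 3.19 for the immediate early transcription factors and 2.72 for the effectors. Sst and Npy of this list are also counted among the GABAergic markers below. In vehicle the same list had 10 higher and 1 lower, beside 9.18% and 10.1% of all genes, with a median of 0.46. Inhba, the activin A subunit, was at 139, 102 and 138 CPM without Cre and at 341, 247 and 234 CPM in the libraries labelled Cre (log2 difference 1.10, adjusted p = 0.0169). Vgf, a secreted neuropeptide precursor, was at 748, 794 and 749 and 1107, 1179 and 1037 CPM (0.53, adjusted p = 0.00478). Rasgrp1, a calcium-responsive activator of RAS, was at 177, 173 and 140.4 and 322, 297 and 334 CPM (0.96, adjusted p = 2.28e-05). Gpr3, a receptor with constitutive activity towards adenylyl cyclase, was at 17.7, 14.9 and 14.8 and 26.7, 23.5 and 23.5 CPM (0.61, adjusted p = 0.00195). All treated libraries labelled Cre were above all those without for these 4. Sorcs3 rose too (0.56), whereas the rises of Scg2 (1.01), Sst (0.88), Nptx1 (0.61) and Npy (0.42) and the fall of Crh (-0.65) were not called in the 6 libraries alone. In that fit 5 of the list rose and 1, Pthlh (-0.65), fell, beside 2.53% and 2.18% of all genes. Leaving out the first treated library labelled Cre left 4 higher and 3 lower, beside 695 and 646 of all 13048 genes. Leaving out either the second or the third treated library without Cre left 6 higher and 2 lower. Of all genes 655 were then higher and 552 lower without the second, and 636 and 585 without the third. Bdnf, the neurotrophin gene, was at 158, 126 and 132 CPM and 184, 165 and 152 CPM, with overlapping groups (0.27, adjusted p = 0.32).

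**Figure D3:**
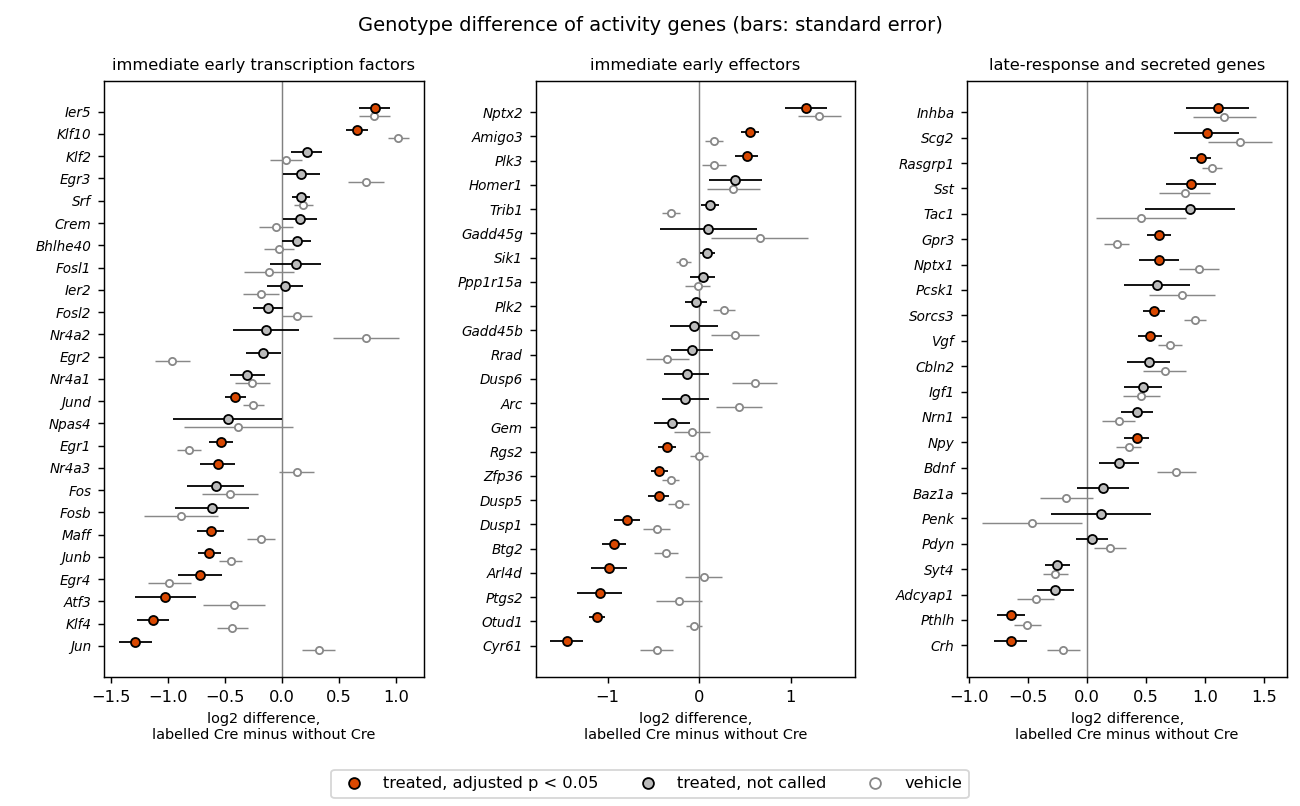
Log2 difference (horizontal axes) between libraries labelled Cre and libraries without Cre for the tested genes of 3 activity lists, in treated slices (large points, filled in colour where the adjusted p was below 0.05) and in vehicle (small open points), with standard errors as bars. In the first list 9 genes are called on the left and 2 on the right, in the second 9 and 3, and in the third 2 and 9.

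Feedback regulators of the ERK and cAMP pathways gave 4 higher and 1 lower of 20, beside 7.5% and 5.95% of all genes. Pde4a and Pde4b, phosphodiesterases that degrade cAMP, moved apart: Pde4a was at 80.6, 77.3 and 70.6 CPM without Cre and 134, 112 and 118 CPM in the libraries labelled Cre (log2 difference 0.66, adjusted p = 8.79e-05), and Pde4b at 110.3, 109 and 99.5 and 74.9, 75.9 and 72.3 CPM (-0.51, adjusted p = 0.00018). Those were the 2 that passed in the 6 libraries alone. Spred2, Spred3 and Errfi1, inhibitors of RAS or EGF receptor signalling, had differences of 0.71, 0.27 and 0.50. In a list of 20 candidate MEF2 targets from the literature, 2 rose, 3 fell (Jun, Klf4 and Egr1, given above) and the median was -0.00343. Kcna4, a voltage-gated potassium channel, was the larger of the 2 rises, from 6.28, 6.43 and 4.84 CPM to 13.4, 12.1 and 11.6 CPM (0.97, adjusted p = 0.000219). In vehicle it differed by 0.17 (adjusted p = 0.319). The other rise, of Lgi1, was 0.22 and did not pass in the 6 libraries alone (adjusted p = 0.127).

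The genotype difference after treatment was also tested against that in vehicle, gene by gene. This interaction was called for 3 of 13048 genes (0.023%), all with a lower value after treatment, while 568 genes had an unadjusted p below 0.05. Jun rose with treatment by 3.10 on the log2 scale without Cre and by 1.50 in the libraries labelled Cre, an interaction of -1.61 (SE 0.21, adjusted p = 0.0197). Otud1, at 11.9, 12.5 and 12.6 CPM in vehicle without Cre and 11.9, 12.3 and 11.4 CPM in vehicle labelled Cre, rose by 1.32 and 0.25 (interaction -1.07, adjusted p = 0.0197). The groups of Otud1 overlapped in vehicle and lay apart after treatment. Ppp1r10, a nuclear subunit that targets protein phosphatase 1 (chromosome 17, positions 35916434 to 35932283), was at 88.6, 89.8 and 89.7 CPM in treated libraries without Cre and at 63.8, 67.1 and 66.9 CPM in those labelled Cre, against 88.7, 95.6 and 86.0 and 98.8, 101 and 101 CPM in vehicle (interaction -0.59, adjusted p = 0.0197). Only the treated libraries labelled Cre were low. The calls depended on which libraries entered, since 0 genes were called by limma when any 1 of 8 libraries was left out (each of the 6 vehicle libraries, the second treated one without Cre or the third labelled Cre), and 6 were called without the third treated library without Cre. The interactions themselves ranged, over the 12 fits that each leave out 1 library, from -1.79 to -1.48 for Jun, -1.19 to -1.001 for Otud1 and -0.63 to -0.55 for Ppp1r10, with adjusted p-values of up to 0.128. On recovered reads DESeq2 called 41 genes and edgeR 3. The next genes by p were Neurod6 and Boc, which were not called (adjusted p = 0.168 for both). Neurod6, a bHLH factor of excitatory neurons, differed by 1.72 in vehicle and 0.53 after treatment, and Boc, a receptor of Sonic hedgehog signalling, by -0.51 and 0.07.

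The genotype differences of treated and of vehicle slices were set side by side for all tested genes. In vehicle 2518 genes were called (19.3%), 1198 (9.18%) higher and 1320 (10.1%) lower. That count fell to 1173 and 1399 without vehicle library 1 or 3 of those without Cre, and to 1290 and 1358 without vehicle library 2 or 3 of those labelled Cre. Of the genes called in treated slices 1229 (70.0%) were called in vehicle too, which is 48.8% of the vehicle calls. Among these 682 were higher in both, 546 lower in both and 1 in opposite directions, Rxfp3, a relaxin-family peptide receptor gene at 3.21, 2.66 and 2.13 CPM in treated libraries without Cre and 4.55, 4.03 and 3.75 CPM in those labelled Cre (0.49), which was lower in vehicle (-0.46). The 526 genes called in treated slices alone held 472 with the same sign in vehicle. Across the 13048 genes the 2 differences had a Pearson correlation of 0.82 and a Spearman correlation of 0.76, with a slope of 0.76 for treated on vehicle. Genes are not independent replicates. The comparisons share no library, but both came from the same fit, with a spread per gene that they share. The labels do not say whether they share animals. Summed Y-linked transcripts were almost absent from the second library without Cre in vehicle (3.89 CPM) as in treated slices (0.522 CPM), and from the first labelled Cre in both (0.596 and 0.395 CPM). Deviations from the group means correlated between same-numbered vehicle and treated libraries at 0.06, 0.41 and 0.07 without Cre and at 0.17, 0.14 and 0.48 in those labelled Cre. Between unlike-numbered ones the correlations ran from -0.25 to 0.13 without Cre and from -0.25 to -0.01 in those labelled Cre. Deviations within a group cancel out, so these values are not independent of one another. The part of shared animals or pools in the correlation and the overlap was not tested, nor was that of the shared spread in the overlap. The largest differences had these log2 values in vehicle: Itgb4 -2.29, Cartpt -2.48, Npnt -1.78, Tmem114 2.40, Rspo2 2.10 and Slc6a7 1.87. Of the 25 immediate early transcription factors 5 were lower and 3 higher in vehicle, with Egr1 (-0.82) and Junb (-0.45) among the lower ones. Cyr61 (-0.46, adjusted p = 0.0904) and Arl4d (0.05, adjusted p = 0.887) were not called there, but neither was their interaction (adjusted p = 0.582 and 0.709). With treatment 3.24% of genes rose in the slices without Cre. Of the 155 that rose more than 2-fold, 20 were higher and 44 lower in the treated libraries labelled Cre, beside 7.5% and 5.95% of all genes. Their median difference was -0.07, and since they were chosen by a comparison that shares the treated libraries without Cre, their direction is a description.

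**Figure D4:**
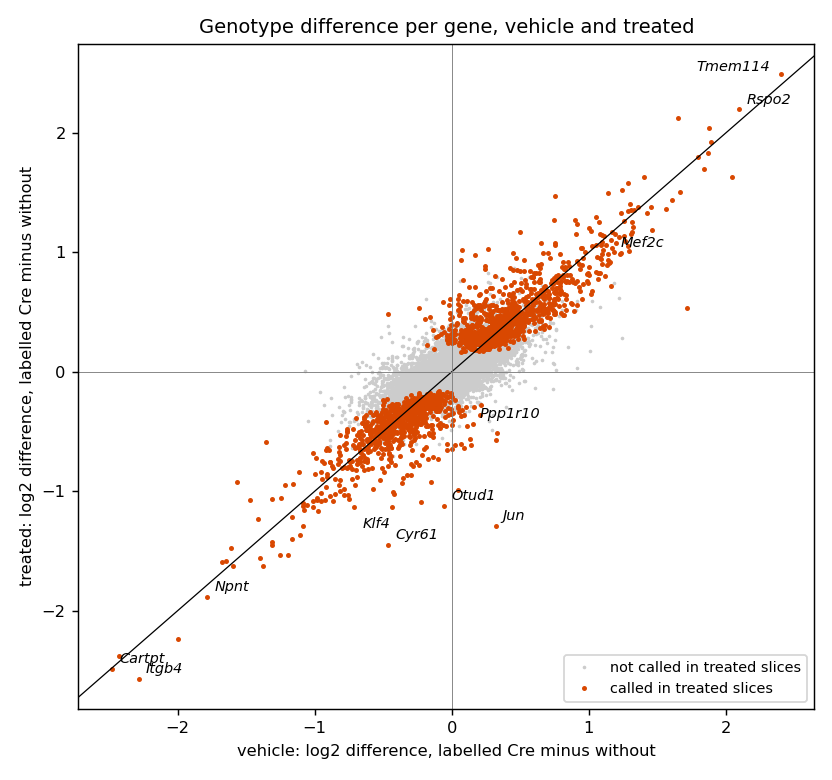
Log2 difference between libraries labelled Cre and libraries without Cre for 13048 genes, in vehicle (horizontal axis) and in treated slices (vertical axis), with the line of equal values. Most coloured genes, called in treated slices, lie near the line, and Jun, Otud1 and Cyr61 lie below it.

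The lists that follow are to be read beside the 7.5% of all genes that rose and the 5.95% that fell over the 12 libraries, and the 2.53% and 2.18% that did in the 6 treated libraries alone. Of 24 glutamate receptor genes 3 rose and 2 fell (12.5% and 8.33%), and 1 and 2 in the 6 libraries alone. Gria1, the GluA1 subunit of AMPA receptors, was at 276, 290.2 and 269.7 CPM without Cre and 402, 380.3 and 372 CPM in the libraries labelled Cre (log2 difference 0.46, adjusted p = 0.00018). The group II metabotropic receptors fell, Grm2 from 61.4, 71.4 and 64.1 to 40.9, 51.7 and 39.6 CPM (-0.57, adjusted p = 0.00411) and Grm3 by 0.39 on the log2 scale. The rise of the NMDA receptor subunit gene Grin2c (0.36) did not pass in the 6 libraries alone (adjusted p = 0.106). Of 24 postsynaptic scaffold and adhesion genes 2 rose and 4 fell (8.33% and 16.7%), and 0 and 3 in the 6 libraries alone. Lower were Lrrtm1, a leucine-rich adhesion protein of excitatory synapses, from 137, 176 and 151 to 93.0, 104 and 99.4 CPM (-0.64, adjusted p = 0.00065), and the scaffold gene Dlg1 (-0.47). Lrrtm3 (-0.38) and Lrrtm4 (-0.61) fell too, while Shank3 (0.43) and Cbln1 (0.56) rose, and of these 4 only Lrrtm3 passed in the 6 libraries alone. Lrrtm1 differed by 0.09 in vehicle (adjusted p = 0.505), and its interaction was not called (adjusted p = 0.168). Among 14 tested genes for GABA-A receptor subunits and gephyrin 3 rose and 1 fell. Both subunits of extrasynaptic receptors in the list that were called moved apart: Gabra5 rose from 88.7, 85.7 and 88.4 to 140.4, 146 and 149 CPM (0.72, adjusted p = 2.86e-05), and Gabrd fell from 54.0, 55.8 and 68.6 to 36.3, 44.0 and 37.3 CPM (-0.59, adjusted p = 0.00152). The other rises were those of Gabrb1 (0.32) and of the anchoring protein gene Gphn (0.30), the latter not in the 6 libraries alone (adjusted p = 0.0747). On the presynaptic side 5 of 25 vesicle release genes fell and 2 rose (20% and 8%), and 3 and 0 in the 6 libraries alone. Stx1a, the SNARE protein syntaxin 1A, fell from 361, 390.2 and 349 to 243, 239.7 and 217 CPM (-0.65, adjusted p = 8.79e-05), and the active zone gene Rims2 by 0.45. Sv2b, a synaptic vesicle glycoprotein gene, was at 290.1, 285 and 258 and 203, 219 and 208 CPM (-0.40, adjusted p = 0.00187), against a vehicle difference of 0.01 and an interaction that was not called (adjusted p = 0.362). Rims1 (-0.26) and Syp (-0.32) fell and Syn2 (0.42) and Sv2c (0.41) rose only over the 12 libraries.

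Of 33 potassium channel genes 4 rose and 5 fell (12.1% and 15.2%, against 7.5% and 5.95% of all genes), and in the 6 libraries alone 2 rose and 3 fell. The EAG channel gene Kcnh5 fell by 0.78 on the log2 scale, the Kv3 gene Kcnc4 by 0.52 and the A-type gene Kcnd1 by 0.39, while Kcna4, given above, had the largest rise of the list. Of 27 sodium, calcium and HCN channel genes 6 rose and 1 fell (22.2% and 3.7%), but 2 and 1 in the 6 libraries alone. Cacna1h, a T-type calcium channel, rose from 45.4, 32.9 and 36.6 to 62.3, 56.9 and 58.2 CPM (0.63, adjusted p = 0.0016). Scn2b, a sodium channel β subunit, fell from 147, 156 and 166 to 103, 115 and 117 CPM (-0.48, adjusted p = 0.000558).

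Neuropeptide precursor genes held 6 that rose and 3 that fell of 20 tested, and 3 and 2 in the 6 libraries alone. Cck, the cholecystokinin precursor, rose from 119, 129 and 101 to 266, 353 and 308 CPM (log2 difference 1.40, SE 0.12, adjusted p = 1.24e-05). Crhbp, which binds corticotropin-releasing hormone, rose from 42.5, 50.9 and 35.7 to 94.2, 70.8 and 63.5 CPM (0.80). Cartpt, Crh and Pthlh were the 3 that fell. In the Wnt list of 18 tested genes 5 rose and 3 fell. The R-spondins went apart, with Rspo2 and Rspo3 (0.78, adjusted p = 0.000306) up and Rspo1 down from 6.07, 5.61 and 10.6 to 2.63, 3.32 and 2.75 CPM (-1.07, adjusted p = 0.00169). The Wnt ligand genes also included both directions: Wnt7b rose from 60.5, 56.4 and 47.9 to 86.7, 133 and 105 CPM (0.95, adjusted p = 0.000522), and Wnt9a fell from 11.8, 11.0 and 12.2 to 6.21, 4.93 and 5.62 CPM (-0.94, adjusted p = 2.84e-05). The retinoic acid list of 15 tested genes gave 3 rises and 1 fall, with Cyp26b1 and the receptor gene Rara (0.65, adjusted p = 0.00144) among those that rose.

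Of 18 tested ephrin and Eph receptor genes 7 rose and 3 fell, although in the 6 libraries alone 3 rose and 2 fell. Efna3, a membrane-anchored ephrin ligand, rose from 27.8, 26.4 and 24.0 to 43.5, 41.6 and 42.1 CPM (log2 difference 0.68, adjusted p = 0.000253), while Efna5 fell from 34.0, 45.1 and 35.8 to 27.6, 22.1 and 22.5 CPM (-0.65, adjusted p = 0.00234). Among receptors Epha3 rose by 0.92 and Ephb3 fell by 0.61 on the log2 scale, and Ephb3 had differed by 0.03 in vehicle, with an interaction that was not called (adjusted p = 0.341). Of 15 genes for slits, robos, netrins and their receptors 3 rose and 5 fell (20% and 33.3%, against 7.5% and 5.95% of all genes), and 3 and 2 in the 6 libraries alone. The secreted repellent gene Slit2 fell from 43.2, 34.8 and 37.6 to 19.3, 17.6 and 14.3 CPM (-1.13, adjusted p = 2.28e-05), and Slit1 rose from 41.0, 31.4 and 23.8 to 56.7, 60.1 and 50.4 CPM (0.81, adjusted p = 0.00306). The netrin-G genes parted as well, Ntng2 rising by 1.16 and Ntng1 falling by 0.76, the latter not called in the 6 libraries alone (adjusted p = 0.0656). Of 20 semaphorin, plexin and neuropilin genes 4 rose and 1 fell (20% and 5%), and 2 and 0 in the 6 libraries alone, with Sema4a the largest (18.9, 16.9 and 15.9 against 34.1, 36.7 and 35.9 CPM, 1.01, adjusted p = 4.85e-06).

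Protocadherin genes gave 2 rises and 4 falls of 11 (18.2% and 36.4%, against 7.5% and 5.95% of all genes), and 0 and 2, Pcdh8 and Pcdh19, in the 6 libraries alone. Pcdh19, a delta protocadherin gene on the X chromosome, fell from 84.9, 109 and 91.7 to 52.0, 52.4 and 49.8 CPM (log2 difference -0.87, adjusted p = 3.33e-05), and its difference in vehicle was -0.33 (interaction not called, adjusted p = 0.341). Pcdh8, also called arcadlin and induced by activity, fell from 200.5, 212 and 197 to 93.2, 153 and 124 CPM (-0.74, adjusted p = 0.00225). Classical cadherins gave 3 rises, led by Cdh9 (1.07) and Cdh22 (0.90), and 3 falls, led by Cdh6 (-0.59), of 14 tested. In the 6 libraries alone 2 rose, 0 fell, and Cdh9 was not called (adjusted p = 0.0537). Collagens, laminins and integrins were called in 5 of 37, or 13.5%, the same share as over all tested genes, with Itgb4, Col8a1 and Npnt among those down and Lama2 (0.55) up.

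Markers of cortical layers and hippocampal fields were counted beside the 7.5% of all genes that rose and the 5.95% that fell. Layer 2/3 markers gave 2 rises and 5 falls of 11, layer 4 markers 1 and 3 of 8, layer 5 markers 1 and 2 of 12 and layer 6 markers 2 and 1 of 12. In the 6 libraries alone these became 1 and 3, 0 and 3, 1 and 1, and 2 and 0. Rasgrf2, an exchange factor gene used to mark layer 2/3, fell from 102, 100.4 and 124 to 44.9, 36.4 and 40.3 CPM (log2 difference -1.40, adjusted p = 5.34e-06), and Mdga1, of the same layer list, rose from 121, 137 and 122 to 304, 278 and 279 CPM (1.17, adjusted p = 5.34e-06). The summed layer 2/3 list was at 1295 to 1590 CPM without Cre and 1360 to 1379 CPM in the libraries labelled Cre, which overlap. In the layer 5 list Ldb2 rose by 1.36 and Parm1 fell by 0.88. Dentate gyrus markers gave 1 rise, Tdo2 (1.35), and 3 falls of 8 tested, Plk5, Npnt and Lct (-1.22), and Prox1, the defining transcription factor of granule cells, was at 14.0, 11.4 and 11.0 and 9.90, 9.92 and 10.8 CPM (-0.23, adjusted p = 0.147). Their summed level was 443 to 554 CPM without Cre and 216 to 225 CPM in the libraries labelled Cre, with Npnt holding most of it in the former. CA1 markers gave 2 rises of 5, Fibcd1 and Mpped1 (0.69), and CA2 and CA3 markers 3 rises and 1 fall of 10, led by Rgs14 from 17.1, 11.0 and 9.85 to 38.2, 25.3 and 29.9 CPM (1.25, adjusted p = 0.000712).

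Markers of excitatory neurons were present at high level in all 6 libraries, with a summed 7385 to 9386 CPM without Cre and 7339 to 8446 CPM in the libraries labelled Cre. Of 10 tested 3 rose, Neurod6, Slc17a6 (0.53) and Neurod2 (0.42), and 3 fell, Emx1 (-0.46), Nrgn (-0.44) and Bhlhe22 (-0.37), of which Neurod6, Nrgn and Bhlhe22 did not pass in the 6 libraries alone (adjusted p = 0.135, 0.157 and 0.0536). GABAergic markers summed to 923 to 1151 CPM without Cre and 1330 to 1407 CPM in the libraries labelled Cre, which do not overlap. Cck, whose levels are given above, held a large part of that difference. Of the 15 GABAergic markers 4 rose, Calb2, Cck, Sst and Npy, and 3 fell, Pvalb, Lamp5 and Dlx2, and only Calb2 and Cck passed in the 6 libraries alone. Gad1 and Gad2, which encode enzymes that make GABA, were at 219, 152 and 122 and 251, 179 and 187 CPM (0.35, adjusted p = 0.217) and at 153, 132 and 117 and 182, 151 and 157 CPM (0.29, adjusted p = 0.0574). Neither was called, nor was Slc32a1 (0.06) of the same list. Astrocyte markers summed to 18158 to 19194 CPM and 16015 to 17818 CPM, with 0 of 13 higher and 2 lower, Sox9 (-0.54) and Aldh1l1 (-0.39), neither of which passed in the 6 libraries alone. By limma 0 genes were called among 12 microglial (327 to 367 CPM without Cre and 265 to 333 CPM in the libraries labelled Cre), 7 endothelial (50.3 to 77.4 and 62.2 to 71.6 CPM) or 4 oligodendrocyte precursor markers (29.1 to 37.2 and 29.1 to 31.7 CPM), by edgeR and DESeq2 neither, and 0, 0 and 1 had an unadjusted p below 0.05. Mature oligodendrocyte markers gave 1 fall of 7, Ugt8a (-0.45), ependymal markers 1 fall of 5, Aqp1 (-0.51), mural and fibroblast markers 1 rise of 10, Tagln (1.27), striatal markers 1 rise and 2 falls of 9 and thalamic markers 2 rises and 1 fall of 8. The part of cell composition in the differences above was not tested.

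**Figure D5:**
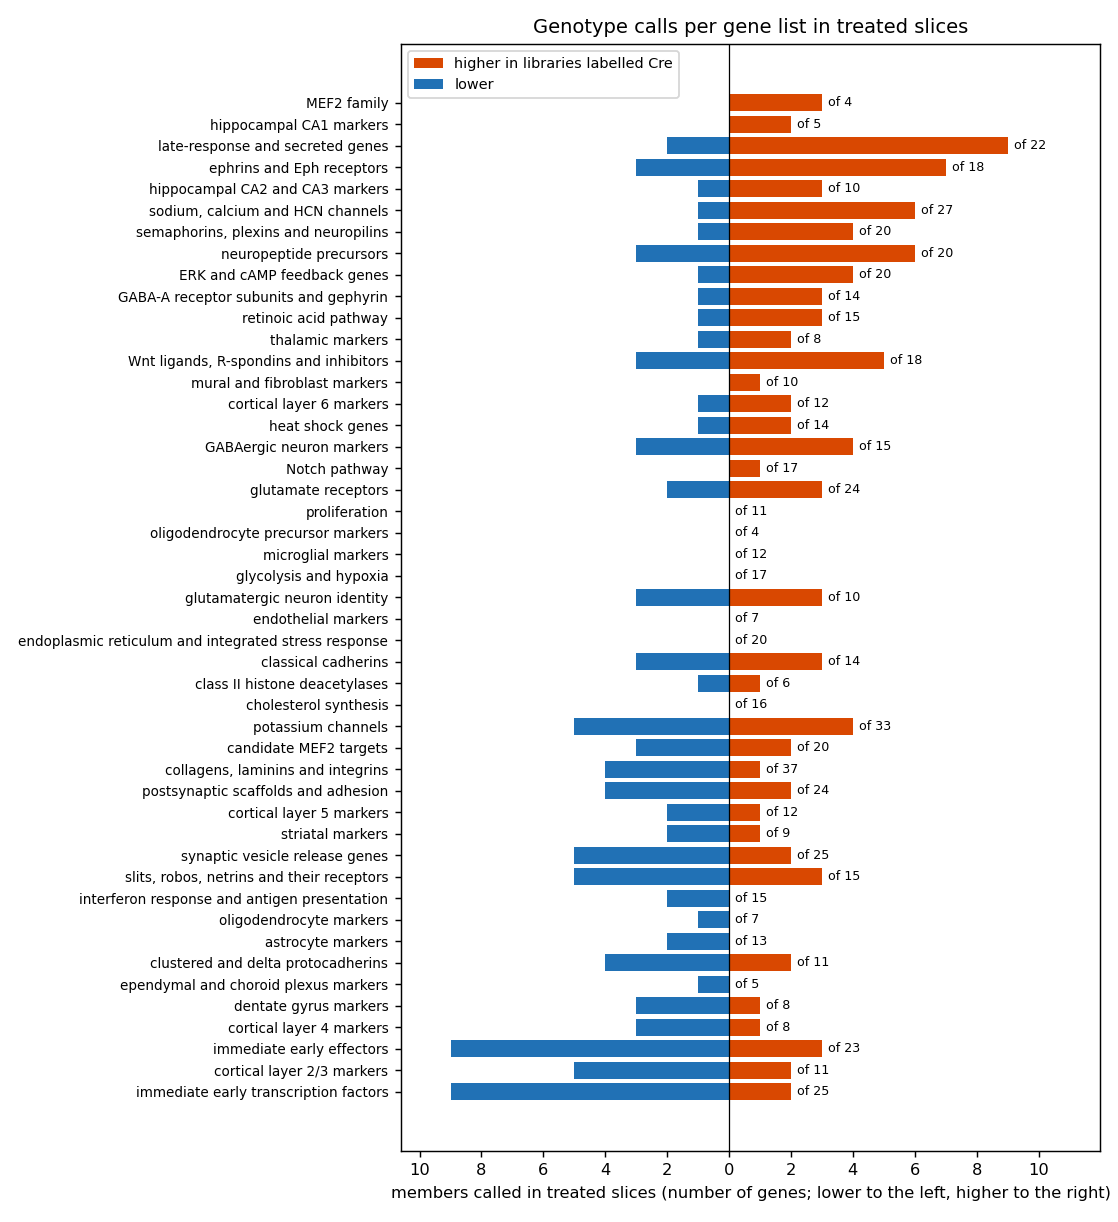
Number of tested genes called higher (bars to the right) and lower (bars to the left) in treated libraries labelled Cre, for each gene list but the Y-linked one, ordered by higher minus lower calls as a share of the genes tested, whose number stands beside each bar. The immediate early transcription factors, with 9 lower and 2 higher of 25, stand at the lower end, and the late-response genes, with 9 higher and 2 lower of 22, near the upper end.

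Stress and metabolic lists were small, so that the 13.5% of all genes called amounts to few genes in each. Limma called 0 of 20 unfolded protein and integrated stress response genes, 0 of 17 glycolysis and hypoxia genes, 0 of 16 cholesterol synthesis genes and 0 of 11 proliferation genes. At an unadjusted p below 0.05 they held 4, 3, 2 and 0 genes, edgeR called 0 of each list, and DESeq2 called 3, 2, 1 and 0. The cholesterol list had a median of 0.28. Heat shock genes gave 2 rises and 1 fall of 14 (21.4% called, against 13.5%). Dnajb1, a co-chaperone of HSP70, was at 337, 269 and 509 and 243, 213 and 194 CPM (log2 difference -0.73, adjusted p = 0.0143), Dnajb5 at 181, 165 and 116 and 321, 231 and 244 CPM (0.79) and Hspb1 at 14.8, 12.8 and 10.1 and 17.6, 21.7 and 19.6 CPM (0.61). None of the 3 passed in the 6 libraries alone (adjusted p = 0.112, 0.0605 and 0.0551). Among interferon and antigen presentation genes 2 of 15 fell (13.3%, against 5.95% of all genes), Ifitm3 (-0.49) and B2m (-0.37), and of 17 Notch pathway genes 1, Hey1 (0.28), rose, and none of these 3 passed in the 6 libraries alone.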

How the data were processed

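Polyadenylated RNA of 12 libraries in 4 groups of 3 had been sequenced as paired reads of 150 bp, per the labels' protocols. The deposited CPM values are the authors' counts per gene scaled to the same total in each library. Per the submitters' processing notes FastQC, Trimmomatic, STAR, DESeq2 and the mm10 build are named, without versions or roles. For the counting tool, gene models and strandedness these sources give nothing, so overlapping genes and near-identical copies may share reads. All 12 columns were used, and 0 columns of other samples were present.

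The 12 libraries held 82235674 to 140390406 reads, recovered from the step that 1 read makes in the CPM values, of which 100% came out whole, within 5.12e-09 of a read. No pair of replicates was a copy (chi-squared over degrees of freedom of at least 26.4). Genes that reached 1 CPM on average were tested as log2(CPM + 1), a scale that understates the change of low genes. limma 3.58.1 in R 4.3.3 fitted a mean per group over all 12 libraries, with trend and robust moderation and Benjamini-Hochberg adjustment over 13048 genes (two-sided, threshold 0.05). Every adjusted p in the text is from this fit unless the 6 treated libraries are named. Coordinates are GENCODE M21 (GRCm38, 19580 symbols matched once), and promoters are RefSeq, GRCm38.p6.

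Alternatives were other pseudocounts, filters, scalings, covariates, blocks, array weights and moderation, the 6 libraries alone, each library left out, and edgeR 4.0.16 (TMM or DESeq2 size factors) and DESeq2 1.42.0 on recovered reads, where an adjusted p that DESeq2 does not give was treated as missing. The fit was also run on simulated counts with the same setting of the spread for every gene and group. That run does not test the fit at the unequal spread of these libraries. The members and the 48 gene lists were chosen with earlier results of these data known. Named genes are Mef2c and its family, the 15 largest rises and 15 largest falls with groups that do not overlap (leaving out sex-linked, predicted and mitochondrially encoded genes), the genes called by the interaction, the 5 smallest interaction p-values, and up to 6 called members with the smallest p per list. Called members of the activity lists beyond these 6 were named after their values were seen. A few called list members are not reported here, though the list counts include them.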

Additional observations from a re-analysis of the deposited data

Results flagged for a closer look

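The genotype difference (libraries labelled Cre minus libraries without Cre) was not the same after treatment as in vehicle for 3 genes, by the interaction in limma. For Jun the difference was -1.29 after treatment and 0.32 in vehicle on the log2 scale, an interaction of -1.61. For Otud1 it was -1.12 and -0.05, an interaction of -1.07. For Ppp1r10 it was -0.43 and 0.15, an interaction of -0.59. Each had an adjusted p of 0.0197, and all 3 treated libraries labelled Cre were lower than all 3 without Cre. The calls were lost when any 1 of 8 of the 12 libraries was left out, with adjusted p-values of up to 0.128, while over all 12 such fits the interaction stayed at -1.79 to -1.48 for Jun, -1.19 to -1.001 for Otud1 and -0.63 to -0.55 for Ppp1r10.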

How the results depend on the processing

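Mef2c stayed higher in the treated libraries labelled Cre under every alternative run, by 0.93 to 1.09 on the log2 scale. The 1755 genes called in treated slices became 614 when the 6 treated libraries were fitted alone, 3804 with array weights and 2780 with the nuclear transcript level as a covariate, and leaving out 1 library gave 1151 (without the third treated library labelled Cre) to 2687 (without the second). DESeq2 called 2473 and edgeR with TMM 1839. The 2518 vehicle calls became 4982 in the 6 vehicle libraries alone, 5092 with array weights and 3863 without the third treated library without Cre and the second labelled Cre, and leaving out 1 library gave 1173 to 3248. The 3 interaction calls became 70 with array weights, 41 with DESeq2, 17 with the nuclear covariate and 7 without those same 2 libraries, and leaving out 1 library gave 0 to 6. The nuclear covariate and the joint removal were chosen after seeing the data. Array weights were estimated gene by gene, since the default estimate did not converge. The causes of these shifts were not tested.

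Of 179 genes named by rule and called in treated slices, 116 passed in each of up to 29 alternatives, 63 were lost in at least 1 and 0 changed sign. This count leaves out called genes that the text names beyond the rule, Egr4, Atf3 and Scg2 among them. Boc, not called, turned from 0.07 to -0.0298 without the 2 libraries. The labels do not say whether replicate numbers pair the genotypes, and this was not tested. Deviations of same-numbered treated libraries correlated between genotypes at 0.36, -0.14 and 0.27. Those of unlike-numbered treated libraries ran from -0.47 to 0.40. With the replicate number as a block 1847 genes were called in treated slices, and 1739 with a block within genotype. The interaction then had 4 and 3 calls.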
